A study of Mus musculus with 6 samples.

Results

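The Hox cluster genes described here are the 34 genes whose platform symbol is Hoxa, Hoxb, Hoxc or Hoxd followed by a number, on probes that name a single gene. They carry 35 of the 34967 gene probes of the array, because Hoxd13 has 2 probes. The RefSeq gene table lists 39 such genes in the mouse and the other 5 are not part of the set. The Hoxc13 probe had no value on any array, so 34 probes of 33 genes were measured.

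RNA came from neurospheres, floating clusters of neural precursor cells, grown from the dorsal telencephalon (the future cortex) of C57BL/6 mouse fetuses at embryonic day 12.5. In the control group, 3 samples came from cultures transfected with a 2'-O-methyl modified oligonucleotide directed at EGFP, a sequence that mouse cells do not carry. In the anti-miR-335 group, 3 samples came from cultures transfected with a 2'-O-methyl modified oligonucleotide antisense to miR-335, a microRNA, so that base pairing blocks it. The labels name no altered allele. Both groups were kept without serum in LIF (0.15 ng/ml), heparin (0.85 units/ml), progesterone (20 nM) and the growth factors EGF and bFGF (each 20 ng/ml). The duration of the transfection is labelled 24, without a unit. What was repeated between replicates is not stated beyond the word independent; p-values therefore measure only the spread between these 6 samples, which may be technical. Any RNA difference between such cultures may come from fewer cells of a type or from less RNA per cell, which cannot be told apart. MicroRNA levels were not analysed here.

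Hox genes encode homeodomain transcription factors that give cells their position along the head-to-tail axis. Genes at one end of each cluster (low paralogue numbers) act in the hindbrain and neck, and genes at the other end (high numbers) act in the lumbar and tail regions and in the limbs. In the embryonic nervous system they are switched on in the hindbrain and spinal cord, largely through retinoic acid and Cdx factors, while in the forebrain Polycomb complexes hold the clusters silent.

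The 5p arm of miR-335 is shown because the treatment is directed at this microRNA; the labels do not name the arm or give the oligonucleotide's own sequence. It is 23 bases long and is encoded at chr6:30741314-30741336 on the + strand (RefSeq, GRCm38.p6). Its seed, bases 2 to 8, is in capitals.
mmu-miR-335-5p: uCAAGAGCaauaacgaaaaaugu

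Of the Hox genes, 20 had 22 promoters in the RefSeq table (GRCm38.p6, 250 bases before to 50 bases after the start of a gene). Those of Hoxa5, Hoxa6, Hoxa7 and Hoxa9 are shown because these genes follow each other in cluster A while their probes alternated between above and below background. Each run is the 250 bases before the start, on the - strand, with every CG pair in capitals. The promoters lie at chr6:52204588-52204837 for Hoxa5, chr6:52208673-52208922 for Hoxa6, chr6:52218574-52218823 for Hoxa7 and chr6:52227371-52227620 for Hoxa9.
Hoxa5: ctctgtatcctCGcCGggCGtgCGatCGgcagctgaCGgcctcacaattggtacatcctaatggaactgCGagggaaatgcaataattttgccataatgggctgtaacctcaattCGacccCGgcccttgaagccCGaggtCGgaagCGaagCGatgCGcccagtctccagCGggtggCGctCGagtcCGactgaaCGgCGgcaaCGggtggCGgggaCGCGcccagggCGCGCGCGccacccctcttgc
Hoxa6: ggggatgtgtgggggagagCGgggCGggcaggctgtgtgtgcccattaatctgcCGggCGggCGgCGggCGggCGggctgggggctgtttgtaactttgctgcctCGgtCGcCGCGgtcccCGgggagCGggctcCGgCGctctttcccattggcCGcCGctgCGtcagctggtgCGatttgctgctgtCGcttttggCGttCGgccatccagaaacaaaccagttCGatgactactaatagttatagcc
Hoxa7: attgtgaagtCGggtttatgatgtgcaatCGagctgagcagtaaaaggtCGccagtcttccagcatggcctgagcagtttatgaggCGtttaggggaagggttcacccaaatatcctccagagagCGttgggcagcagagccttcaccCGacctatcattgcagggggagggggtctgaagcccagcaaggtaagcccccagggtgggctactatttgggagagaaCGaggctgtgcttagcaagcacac
Hoxa9: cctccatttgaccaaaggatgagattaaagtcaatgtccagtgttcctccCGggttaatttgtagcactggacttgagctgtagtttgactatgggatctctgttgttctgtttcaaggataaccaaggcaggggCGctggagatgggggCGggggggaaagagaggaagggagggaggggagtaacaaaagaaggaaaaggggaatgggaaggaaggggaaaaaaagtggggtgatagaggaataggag

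The Hoxa5 run held 28 CG pairs and the Hoxa6 run 24, while Hoxa7 held 7 and Hoxa9 held 3. Hoxa5 and Hoxa7 were above background on all 6 arrays, and Hoxa6 and Hoxa9 on 0, so the count of CG pairs did not follow detection among these neighbours. Over the full 300 bases, the Hox promoters held a median of 17.5 CG pairs against 7 in all 32851 promoters of the table. The median was 16.5 over the 10 promoters of genes above background on at least 4 arrays, and 15 over the 11 promoters of genes above background on at most 1. On either strand, TATAAA was found in 13.6% of the Hox promoters and 13.6% of all promoters. TGATTNAT, a motif of Hox and Pbx dimers, was found in 9.09% against 3.22%, and AGGTCA, the half-site of retinoic acid receptors, in 27.3% against 16.3%. These are matches of letters and describe the sequences only; AGGTCA was in 6 of the 22 and TGATTNAT in 2.

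Intensities are given relative to the median of the array; over the gene probes that median was 0.991 to 0.997. The background limit of an array was set at the median of its 320 negative control spots plus 3 scaled median absolute deviations, and lay between 0.492 and 0.692. Between 59.9% and 67.3% of all gene probes passed it. The cells were checked against 14 genes of the dorsal telencephalon, of which 13 were measured. Six3, Sox2, Pax6, Otx1, Lhx2, Emx2, Nes and Tbr1 were above background on all 6 arrays, with Six3 at a mean of 58.6 in control and 60.8 in anti-miR-335 cultures (log2 difference 0.09 ± 0.18, SE) and Sox2 at 32.9 and 35.6 (0.12 ± 0.23). Emx1, Otx2 and Hes1 were above background on 0 arrays, and Eomes on 1 and Neurog2 on 2. Several genes of this list, such as Six3, Sox2 and Nes, are not restricted to the dorsal telencephalon. Of ventral forebrain genes in the other lists, some were above background on all 6 arrays and some on 0. The check therefore does not settle the region of the cells.

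Hox probes were detected in these forebrain-derived cultures, but at a lower share than gene probes at large. In control cultures 47.1%, 52.9% and 44.1% of the 34 Hox probes were above background, a mean of 48.0% ± 4.49 (SD, n = 3), against 60.9% ± 1.28 of all gene probes. In anti-miR-335 cultures the Hox shares were 47.1%, 50% and 55.9%, a mean of 51.0% ± 4.49. The ranges of the groups overlapped, and the highest share was on the array with the lowest background limit, anti-miR-335 replicate 3; the part of that limit in the share was not tested. On all 6 arrays together, 12 Hox probes (35.3%) were above background, against 52.2% of the gene probes with 6 values, and 12 Hox probes (35.3%) were above it on 0 arrays, against 26.4%. No test was made of these shares, because the genes were chosen with results of these data known.

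**Figure D1:**
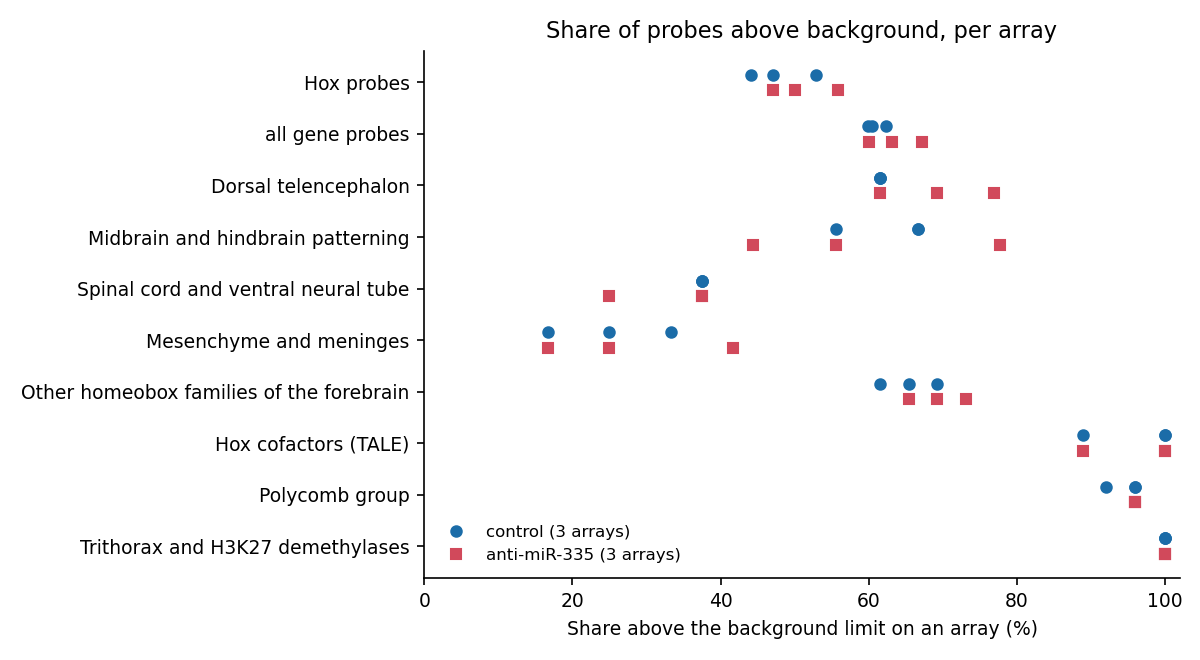
Share of probes above the background limit on each array (x axis, percent) for the Hox probes, all gene probes and lists of related genes; circles are the 3 control arrays and squares the 3 anti-miR-335 arrays. The Hox probes lie between 44.1% and 55.9%, below the 59.9% to 67.3% of all gene probes, and the control and anti-miR-335 points overlap. Each gene of a list is read from its brightest probe, while the Hox and all-gene shares count every probe.

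The Hox probes above background on every array came from all 4 clusters. They were Hoxa3, Hoxa5 and Hoxa7 in cluster A (3 of 10 probes with values), Hoxb3, Hoxb5, Hoxb7, Hoxb8 and Hoxb13 in cluster B (5 of 10), Hoxc4 and Hoxc10 in cluster C (2 of 6), and Hoxd1 and Hoxd10 in cluster D (2 of 8). By position in the cluster, 4 of 10 probes of paralogue groups 1 to 4, 5 of 11 of groups 5 to 8 and 3 of 13 of groups 9 to 13 were above background throughout. Above background on 0 arrays were 3 of 10, 2 of 11 and 7 of 13. In cluster A the detected Hoxa3, Hoxa5 and Hoxa7 alternated with the undetected Hoxa4, Hoxa6 and Hoxa9. Hoxb5 to Hoxb8 in cluster B and Hoxd8 to Hoxd10 in cluster D were each above background on at least 4 arrays without a gap. Probes differ in binding strength, so their intensities are not set against each other.

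**Figure D2:**
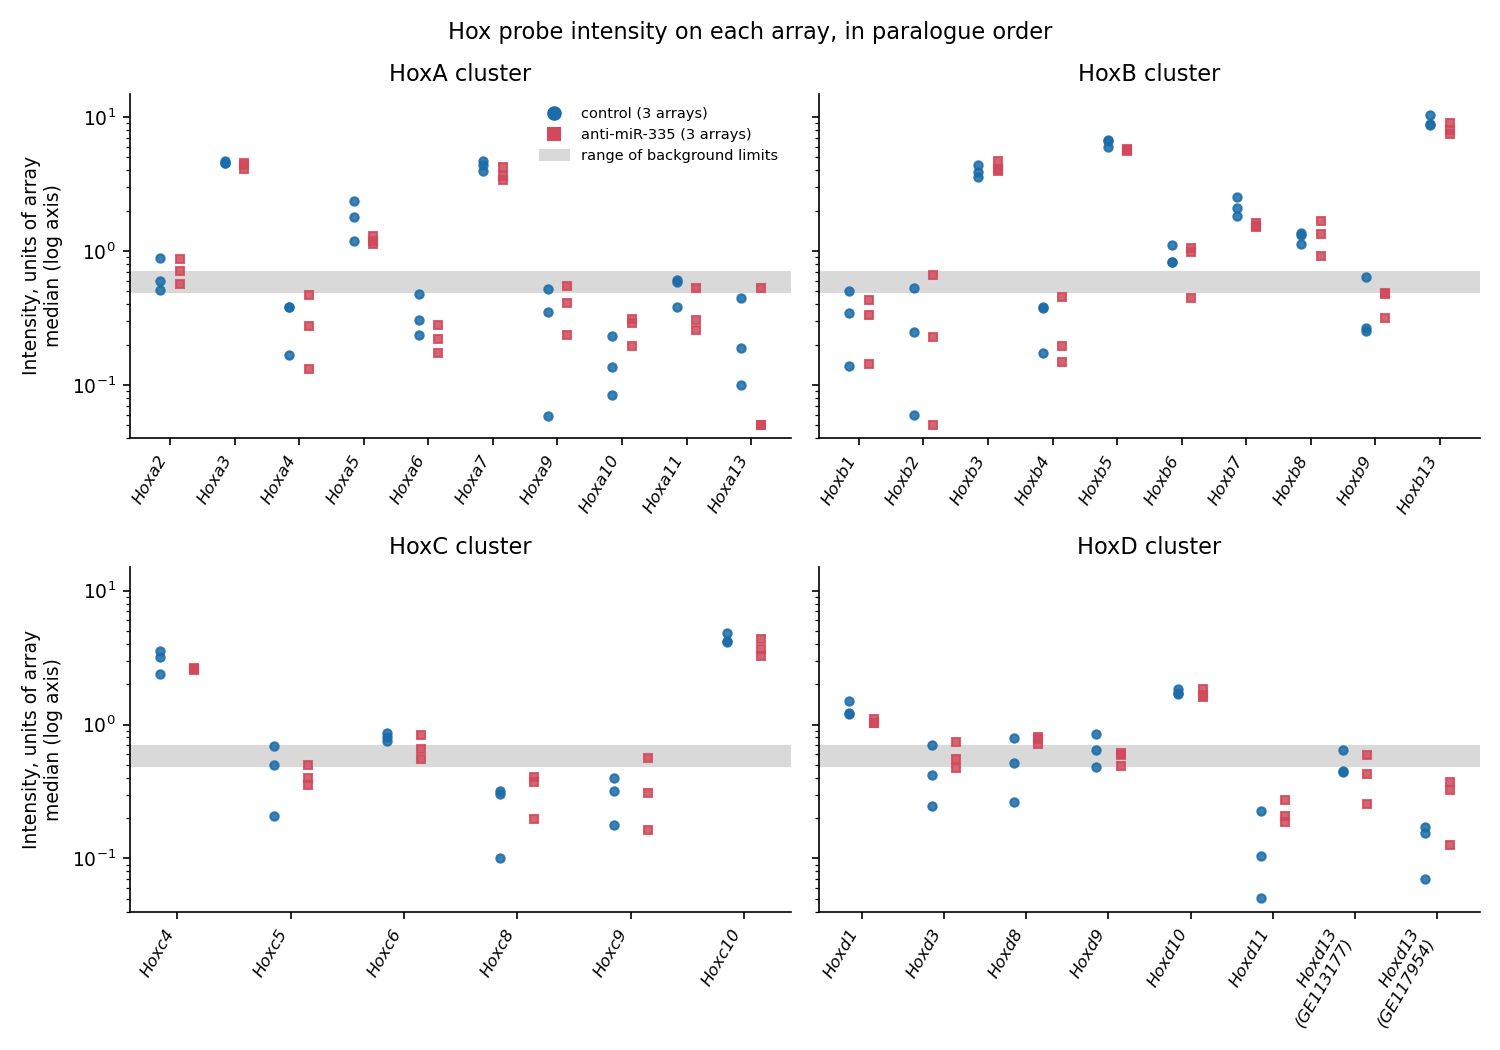
Intensity of each measured Hox probe (log y axis, units of the array median) on 3 control (circles) and 3 anti-miR-335 arrays (squares), by cluster and paralogue number; the grey band spans the background limits, 0.492 to 0.692, and 3 values under 0.05 are drawn at 0.05. Hoxb13, Hoxb5, Hoxa3, Hoxb3, Hoxc10 and Hoxa7 lie well above the band, and neighbours such as Hoxa4, Hoxa6 and Hoxb4 lie below it.

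These features of the probes bear on what is read. Hox paralogues share the homeobox sequence, and how far a probe also binds the RNA of a paralogue was not tested, since probe sequences were not used here. In the RefSeq table the gene Hoxa3 overlaps Hoxa4, Hoxa5 and Hoxa6, Hoxb3 overlaps Hoxb4, Hoxd3 overlaps Hoxd4, and Hoxd10 overlaps Hoxd11, so a probe may read an overlapping transcript. The Hoxa4, Hoxa6, Hoxb4 and Hoxd11 probes were above background on 0 arrays, and the Hoxa5 probe on all 6. Whether any of these probes reads an overlapping transcript was not tested. The scanner software's own quality flag, used for replicate 1 of each group, marked 18 of 34 Hox probes (52.9%) as good on each of these arrays, against 62.9% and 63.0% of all gene probes. It marked all 12 of the probes above background throughout as good on both.

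Whether blocking miR-335 changed Hox RNA was asked by comparing 3 anti-miR-335 with 3 control arrays, with limma over all 34847 gene probes that had at least 2 values per group. No Hox probe passed an adjusted p of 0.05: 0 of 34 in either direction, as for all probes, of which 0 passed (0.0%). The smallest adjusted p of a Hox probe was 0.491. The count over all probes rested on single arrays: it was 1100 without control replicate 1, 1571 without the replicate 1 arrays of both groups and 474 with array weights, and 0 Hox probes passed in each of these fits. At an unadjusted p under 0.05, 1 Hox probe was lower, Hoxb7, and 0 were higher, against 4.17% lower and 4.91% higher among all probes. The groups did not overlap for 3 Hox probes, all lower (Hoxb5, Hoxb7 and Hoxd1), which is 3 of 34 against 7.12% of all probes, and for 0 higher, against 7.32%. The counts of lower probes are near the background shares. An adjusted p above the threshold does not show that levels were equal.

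By direction, 20 of the 34 Hox probes had lower and 14 higher mean log2 intensity in anti-miR-335 cultures, and 58.8% lower compares with 48.1% of all probes. The median log2 difference (anti-miR-335 minus control) was -0.07 for the Hox probes and 0.01 for all probes. Among the 12 Hox probes above background on all arrays, 10 were lower, with a median of -0.20, where 44.4% of the 17843 gene probes above background throughout were lower and the median was 0.03. Expressed as the median log2 deviation from the control mean of each probe, these 12 probes lay at -0.07, -0.03 and 0.11 in control cultures and at -0.32, -0.05 and -0.22 in anti-miR-335 cultures. Anti-miR-335 replicate 2 thus lay among the controls, and replicates 1 and 3 lay below them. Over all gene probes above background throughout, the same measure was 0.07, -0.05 and -0.02 in control and -0.01, 0.08 and 0.03 in anti-miR-335 cultures.

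**Figure D3:**
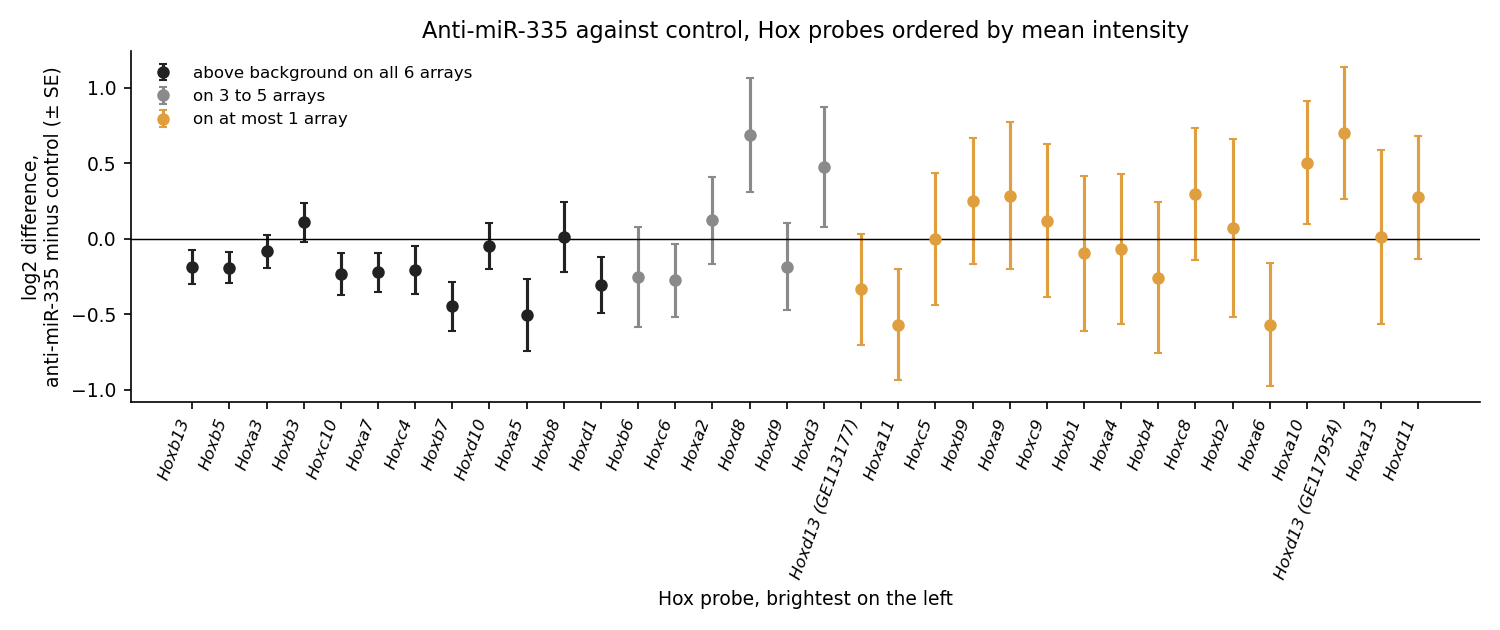
Log2 difference of each Hox probe, anti-miR-335 minus control, with its standard error from limma (3 arrays per group), ordered by mean intensity and coloured by the number of arrays above background. Of the 12 probes above background on all arrays 10 lie below 0, while the error bars of dim probes on the right are wide; values of probes below background depend on the floor and are not read as changes.

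The members are described from the anterior end of the clusters. Hoxd1, the paralogue group 1 gene of its cluster, known for its role in the wiring of pain-sensing neurons, was at 1.49, 1.20 and 1.21 in control and 1.02, 1.10 and 1.03 in anti-miR-335 cultures. All anti-miR-335 arrays were below all controls, and the difference was -0.31 ± 0.18 (log2, SE), with an adjusted p of 0.659 in limma. Hoxa2, the selector gene of the branchial arch, was at 0.597, 0.884 and 0.512 in control and 0.708, 0.567 and 0.866 in anti-miR-335 cultures. It was close to the limit everywhere, and the groups overlapped (log2 difference 0.12 ± 0.29). It exceeded the limit on 1 of 3 control and 3 of 3 treated arrays, a split that depends on each array's own limit: 0.567 counted as above on anti-miR-335 replicate 2 (limit 0.563) and 0.597 as below on control replicate 1 (limit 0.656).

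In paralogue group 3, which patterns the hindbrain and the pharyngeal region, Hoxa3 was at 4.58, 4.72 and 4.54 in control and 4.11, 4.56 and 4.39 in anti-miR-335 cultures. Hoxb3 was at 3.87, 3.58 and 4.38 against 4.70, 3.97 and 4.08. Both were at least 5.68 times the background limit on every array, and their groups overlapped. The log2 differences were -0.08 ± 0.11 for Hoxa3 and 0.11 ± 0.13 for Hoxb3. Hoxd3 was at 0.245, 0.422 and 0.706 in control and 0.745, 0.477 and 0.554 in anti-miR-335 cultures, above background on 3 of 6 arrays, with overlapping groups (0.48 ± 0.40). Hoxc4, active in the neck region, was at 2.37, 3.18 and 3.56 in control and 2.64, 2.56 and 2.58 in anti-miR-335 cultures. The anti-miR-335 values were tight (SD 0.0382) and lay within the control range, with a difference of -0.21 ± 0.16. It was -0.38 without control replicate 1 and -0.08 without control replicate 3.

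In paralogue group 5, which patterns the neck and upper trunk, Hoxb5 was at 6.68, 6.01 and 6.72 in control (6.47 ± 0.397, SD) and 5.81, 5.64 and 5.54 in anti-miR-335 cultures (5.66 ± 0.134). Every anti-miR-335 array was below every control, and the difference of -0.19 ± 0.10 did not pass (limma adjusted p = 0.624). Hoxa5, which also acts in lung development, was at 1.19, 1.78 and 2.36 in control and 1.13, 1.30 and 1.19 in anti-miR-335 cultures. Control replicate 1 lay among the anti-miR-335 values and the other controls lay above them. The difference was -0.50 ± 0.24, with a limma adjusted p of 0.575, and it rested on single arrays. Without control replicate 1 it was -0.76 (limma adjusted p = 0.0520), and without control replicate 3, the highest value, it was -0.27 (adjusted p = 0.864). Of paralogue group 6, Hoxb6 was at 0.830, 0.834 and 1.12 against 1.04, 0.444 and 0.986, and Hoxc6, active at forelimb level in the spinal cord, at 0.868, 0.754 and 0.811 against 0.653, 0.830 and 0.552. Each was above background on 5 arrays and overlapped between groups (-0.25 ± 0.33 and -0.28 ± 0.24).

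In paralogue group 7, genes of the thoracic trunk, Hoxb7 was at 1.82, 2.09 and 2.53 in control (2.15 ± 0.355, SD) and 1.52, 1.63 and 1.53 in anti-miR-335 cultures (1.56 ± 0.0565). It had the smallest p of the Hox probes: all anti-miR-335 arrays were below all controls, with a difference of -0.45 ± 0.17, a limma p of 0.021 and an adjusted p of 0.491. Without control replicate 1 the limma adjusted p was 0.0771, and without any other single array it was 0.561 to 0.886. Hoxa7 was at 3.99, 4.35 and 4.72 in control and 3.39, 4.21 and 3.63 in anti-miR-335 cultures. Anti-miR-335 replicate 2 lay within the control range and the other replicates below it (-0.22 ± 0.13). Of paralogue group 8, Hoxb8, which is also active in blood progenitors, was at 1.13, 1.31 and 1.36 against 0.925, 1.66 and 1.35, with the anti-miR-335 arrays on both sides of the controls (0.01 ± 0.23). Hoxd8 was at 0.262, 0.799 and 0.516 in control and 0.718, 0.775 and 0.812 in anti-miR-335 cultures, exceeding the limit on 1 of 3 control arrays and on 3 of 3 treated arrays. Its difference was 0.69 ± 0.38 (limma adjusted p = 0.624), and ranged from 0.26 without control replicate 1, which held the lowest value, to 1.06 without control replicate 2, which held the highest control value.

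At the posterior end, Hoxb13, a gene of the tail bud and the prostate, was at 8.73, 8.86 and 10.4 in control (9.32 ± 0.914, SD) and 7.54, 8.96 and 8.05 in anti-miR-335 cultures (8.18 ± 0.719). It was at least 10.9 times the background limit on every array, and anti-miR-335 replicate 2 lay within the control range (-0.19 ± 0.12). Hoxc10 and Hoxd10 specify lumbar, hindlimb-level neurons. Hoxc10 was at 4.84, 4.19 and 4.15 in control and 3.27, 4.34 and 3.66 in anti-miR-335 cultures, with overlap in replicate 2 (-0.23 ± 0.14). The Hoxc10 difference ranged from -0.37 without the replicate 2 arrays of both groups to -0.07 without the replicate 1 arrays. Hoxd10 was at 1.68, 1.72 and 1.85 against 1.601, 1.84 and 1.65, with groups that overlapped (-0.05 ± 0.15). Hoxd9, active in the lumbar trunk and the limbs, was at 0.852, 0.640 and 0.478 against 0.491, 0.588 and 0.616, near the limit and overlapping (-0.18 ± 0.29). Hoxa10, a gene of the lumbar region and the uterus, was below background on all arrays, at 0.232, 0.0840 and 0.137 against 0.289, 0.311 and 0.196, and no fold is given.

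Hoxd13, which shapes the digits, has 2 probes, and both were below background on all arrays. The first (GE113177) was at 0.646, 0.451 and 0.439 in control and 0.589, 0.426 and 0.254 in anti-miR-335 cultures. The other (GE117954) was at 0.156, 0.0704 and 0.171 against 0.127, 0.323 and 0.369. The scanner's quality flag marked GE113177 as good on both replicate 1 arrays, and GE117954 on neither. On these arrays GE113177 was at 0.986 times the limit in control and 0.851 times in anti-miR-335 cultures. As for Hoxa10, no fold is given for either probe.

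**Figure D4:**
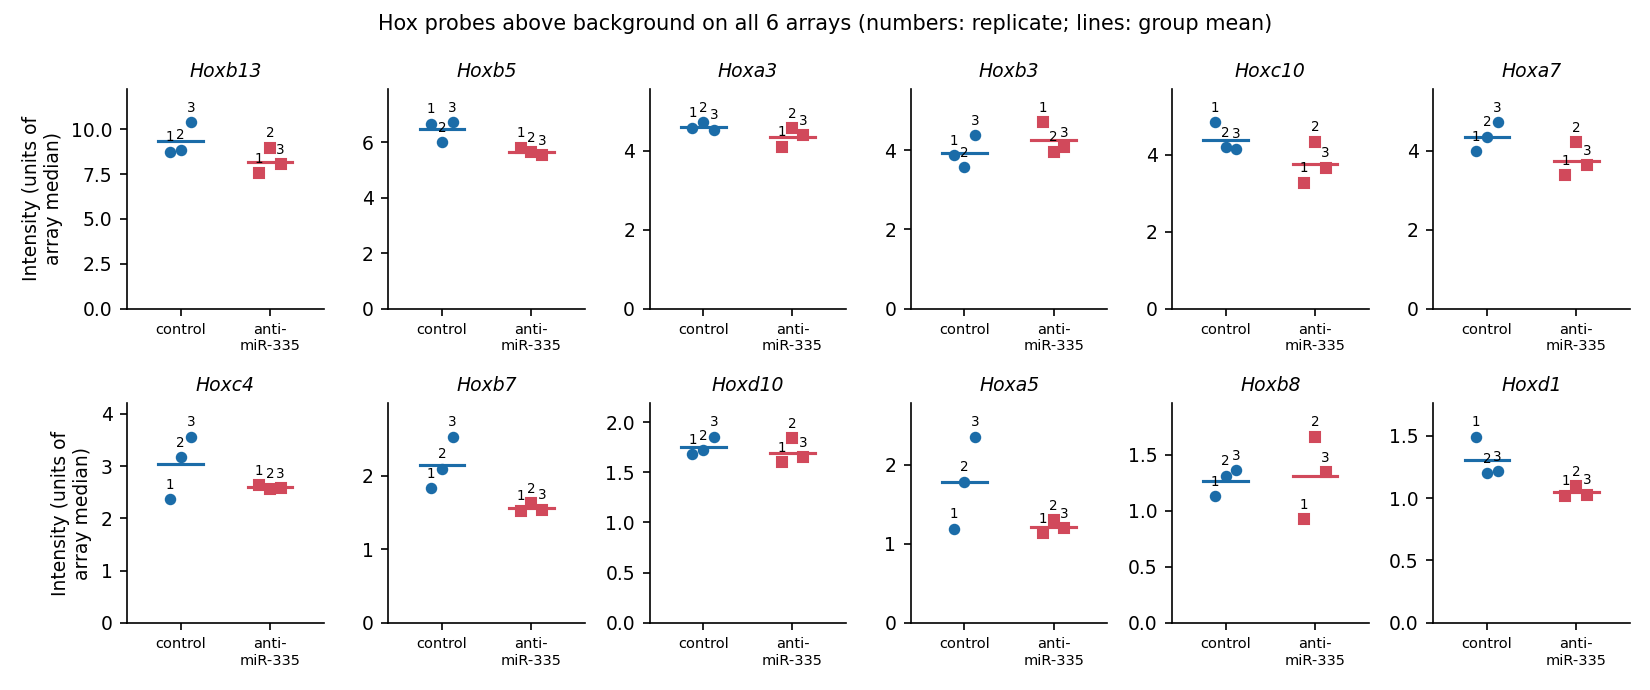
Intensity (y axis from 0, units of the array median) of the 12 Hox probes above background on all 6 arrays, each point 1 array numbered by replicate, each line a group mean of 3. In Hoxb5, Hoxb7 and Hoxd1 every anti-miR-335 array lies below every control array; the other panels overlap.

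The remaining members were at or near background. Hoxb2, Hoxb9, Hoxc5 and Hoxc9 were above the limit on 1 array each, Hoxb2 and Hoxc9 in anti-miR-335 and Hoxb9 and Hoxc5 in control cultures. The probes of Hoxa4, Hoxa6, Hoxa9, Hoxa10, Hoxa11, Hoxa13, Hoxb1, Hoxb4, Hoxc8, Hoxd11 and Hoxd13 were above it on 0 arrays. By detection, 0 Hox probes were above background on 3 of 3 arrays of one group and 0 of 3 of the other. This split was not counted over all gene probes, so the count is not read as a trait of the Hox probes.

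Markers of other regions and cell types were read with the same limit, whether or not Hox genes are normally active there. Of 8 measured genes of the spinal cord and ventral neural tube, 2 were above background on at least 4 arrays, Pax3, at a mean of 5.75 in control and 5.82 in anti-miR-335 cultures (n = 3 each; log2 difference 0.02 ± 0.11), and Dbx2, at 4.03 and 3.22 (-0.34 ± 0.19). Of 9 measured midbrain and hindbrain genes, 5 were, among them En2, at 3.04 and 3.33 (0.13 ± 0.12), and Wnt1, at 2.999 and 3.33 (0.15 ± 0.14). Of 12 mesenchymal and meningeal genes, 2 were above background on at least 4 arrays, Foxc1, at 6.16 and 6.85 (0.16 ± 0.14), and Prrx1, at 2.66 and 3.82, and 6 were on 0 arrays. The counts were 1 of 8 for endothelium and 1 of 6 for blood and microglia. The part of other cell types in the Hox signal was not tested. In each list 0 genes passed an adjusted p of 0.05 in limma, and Prrx1 had an unadjusted p of 0.00157 (log2 difference 0.53 ± 0.12, adjusted p = 0.394).

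Partners and regulators of the Hox genes were measured as whole lists. Of the TALE homeodomain genes, 9 of 11 were measured and 9 were above background on at least 4 arrays. The list holds the Pbx, Meis and Pknox genes, whose proteins bind DNA together with Hox proteins, and also the Tgif genes. Meis1 was at 16.9 in control and 18.2 in anti-miR-335 cultures (0.12 ± 0.12) and Tgif2 at 12.2 and 10.5 (-0.15 ± 0.22). By limma, 0 of 9 passed, 7 were higher and the list's median was 0.12. Meis3 (0.36 ± 0.19) and Pknox1 (0.24 ± 0.15) had the smallest p, with adjusted p-values of 0.605 and 0.669.

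Of the Polycomb group, which keeps Hox clusters silent, 25 of 27 genes were measured and 24 were above background on at least 4 arrays; Cbx2, a chromatin-binding subunit named after its values were seen, was above it on 0. The histone-binding subunits Rbbp4, at 70.6 and 76.7 (0.13 ± 0.12), and Rbbp7, at 68.8 and 68.0 (-0.01 ± 0.11), were among the detected. By limma 0 of 25 passed, 16 were higher and the median log2 difference was 0.10. Pcgf2 was at 3.79 in control and 5.47 in anti-miR-335 cultures (0.53 ± 0.13, adjusted p = 0.394) and Phc1 at 11.5 and 15.6 (0.44 ± 0.14, adjusted p = 0.449). These were the 2 of 25 genes at an unadjusted limma p under 0.05, both higher, against 4.91% higher and 4.17% lower among all probes. The count is small and is not read as a change of the Polycomb group. Of the trithorax group and the H3K27 demethylases, which keep Hox genes active, all 10 measured genes were above background on all 6 arrays. Dpy30 was at 50.03 and 51.6 (0.05 ± 0.12), and Kmt2a, the methyltransferase best known for maintaining Hox expression, at 4.72 and 6.30 (0.42 ± 0.17, adjusted p = 0.518). By limma 0 of 10 passed and 8 were higher, with a median of 0.11.

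Of the retinoid pathway and the caudal factors upstream of the clusters, 17 of 22 genes were measured and 12 were above background on at least 4 arrays. Egr2, the hindbrain factor that activates Hoxa2 and Hoxb2, was at 14.6 in control and 23.4 in anti-miR-335 cultures (0.73 ± 0.22, limma adjusted p = 0.444). Cdx4, a caudal factor that activates trunk Hox genes, was at 6.42 and 5.01 (-0.35 ± 0.14, adjusted p = 0.518). The groups overlapped for both genes. Control replicate 1 was at 20.9 for Egr2 and 5.27 for Cdx4, and anti-miR-335 replicate 1 at 19.3 and 5.36. By limma 0 of 17 passed, with 11 higher and a median of 0.04. Of the ParaHox genes and the genes flanking the clusters, 14 of 15 were measured and 11 were above background on at least 4 arrays. Hibadh, beside cluster A, was at 63.9 and 60.4 (-0.08 ± 0.11), and Mtx2, beside cluster D, at 18.0 and 21.4 (0.24 ± 0.11, adjusted p = 0.544). Snx10, also beside cluster A, was at 8.16 and 10.2 (0.33 ± 0.13, adjusted p = 0.502). By limma 0 of 14 passed, with 8 higher and a median of 0.08. For comparison, of 26 measured homeobox genes of other families, mostly of the forebrain, 18 were above background on at least 4 arrays. Among them were Pou3f3, at 124 and 136 (0.13 ± 0.13), and Cux1, at 50.5 and 48.6 (-0.05 ± 0.11). The list includes a pluripotency gene and a gene also counted among the TALE genes. Genes of this and the other lists were each read from their brightest probe, which favours detection. The count for the Hox probes was 17 of 34 and covers every Hox probe, so these counts are not like for like. The share of all gene probes above background on at least 4 arrays is not given here, so 17 of 34 is not read as a trait of the Hox probes. By limma 0 of 26 passed, with 14 higher and a median of 0.04.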

How the data were processed

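Total RNA (2 µg) of 3 control and 3 anti-miR-335 samples was labelled with biotin as cRNA, then hybridised to single-colour CodeLink arrays (18 h), per the labels. The deposited intensity values had been divided by each array's median by the authors, per the labels, with CodeLink Expression Analysis 4.1.0.29054, per the file headers. A signal strength score and quality flags, per the file headers, were used for replicate 1 of each group only, so a slide or scan effect was not tested. Symbols are those of the platform annotation (1 symbol for 21615 probes), updated through RefSeq (GRCm38.p6), which changed 0 Hox symbols.

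On the log2 scale, 0.163 (the 5th percentile of positive intensities) served as the floor. The test was limma 3.58.1 under R 4.3.3 (lmFit, eBayes with an intensity trend, two-sided, no covariate), with Benjamini-Hochberg adjustment over 34847 gene probes; the script was tested on simulated data. Means and SDs are of linear intensities, n = 3; the number of arrays limits the precision. Where all arrays of a group are below background, no fold could be bounded above 1 for a Hox probe.

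The replicate numbers did not pair the samples: the correlations of same-numbered deviations were -0.23, 0.04 and -0.26 over 17843 probes. Values are given for every array for Hox probes above background on at least 4 arrays, for up to 5 per direction with the smallest p, and for all probes of a gene so named. From each other list, the 2 brightest genes and the 2 with the smallest p could be named, besides the dorsal telencephalon markers used to check the cells. Each gene of every list was read from its probe with the highest mean intensity, while all Hox probes were counted. The members and lists were chosen with earlier results of these data known, and no set test was run. Alternatives were other background limits, quantile normalization, other floors, a filter on dim probes, other variance settings, array weights, a replicate block and leaving out arrays.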

Additional observations from a re-analysis of the deposited data

How the results depend on the processing

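The count of Hox probes past an adjusted p of 0.05 in limma was 0 under every setting run, with a smallest adjusted p of 0.0520 without control replicate 1, 0.0835 without both replicate 1 arrays and 0.0992 with array weights. The count over all probes, 0 as reported above, was 474 with array weights, which were lowest for control replicate 1 (0.366) and highest for control replicate 2 (2.25). It was 1 with quantile normalization, 3 with a robust trend, and 0 to 1571 when arrays were left out (1100 without control replicate 1, 1571 without both replicate 1 arrays, 1 without anti-miR-335 replicate 1). The cause was not tested. With the replicate block the count was 0 for Hox and for all probes, the median Hox difference stayed at -0.07 and Hoxb7 had an adjusted p of 0.753; the numbers do not pair the samples. The median Hox difference was -0.19 with dim probes left out, over the 18 Hox probes then tested, and -0.14 to -0.03 when arrays were left out. The mean Hox share above background, 49.5%, was 56.9% with a limit at 2 scaled deviations, 59.3% with the 95th percentile of the negative controls and 39.7% with their highest spot, by construction of the limit. The share of all gene probes at these limits is not given, so these values do not show whether the Hox share stays below it. In alternatives added after seeing the data, the mean Hox share was 48.2% to 50.6% without 1 array, and the number above background throughout was 10 to 15. The number lower in anti-miR-335 cultures among the 12 probes above background throughout, 10 as reported, was 9 to 11 over all alternatives of the fit, which were likewise added after seeing the data. Of the Hox probes named, Hoxa2 turned to -0.069 with array weights and Hoxb8 to -0.0074 with quantile normalization. When arrays were left out, Hoxa2 ranged from -0.20 to 0.50, Hoxb6 from -0.55 to 0.14, Hoxb8 from -0.18 to 0.24, Hoxd3 from -0.086 to 0.89, Hoxd9 from -0.46 to 0.12 and Hoxd10 from -0.12 to 0.014; the cause was not tested. The other Hox probes given by array kept their sign in these fits. The scanner intensities of the replicate 1 arrays alone, not divided by the array median, were compared without a test. There the sign turned for 5 of the 17 Hox probes above background on at least 4 arrays: Hoxa5 (0.03), Hoxb6 (0.43), Hoxb8 (-0.19), Hoxc4 (0.26) and Hoxd10 (0.03). Hoxb7 was at -0.16. In the normalized values of these arrays, Hoxa5 (1.13 against 1.19 in control) and Hoxd10 (1.601 against 1.68) stayed lower in anti-miR-335, so their turns are absent after normalization. The number of arrays, 3 per group, and the signals near background limit the precision of the Hox differences; values of probes below background also move with the floor.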

Other observations

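Probes of antisense transcripts in the clusters were chosen after their values were seen. Those of Hoxaas3 and Hoxb5os were above background on 0 arrays, and the 2 probes of Hoxd3os1 on 3 and 0 arrays.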
